A study of Homo sapiens with 2 samples.

Results

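Fibronectin (FN1) and the hyaluronan receptor CD44 are each made from 1 gene whose transcripts are spliced in several ways, and the data describe how much of each listed transcript was present in a treated and an untreated culture of human CHME3 cells. Members are the transcript records named FN1 or CD44 in the deposited lists: 10 RefSeq transcripts of FN1 and 8 of CD44, so 18 of 56891 records, under 2 of 26370 gene names. CHME3 is an immortalised line that the labels call microglia, used at passages 4 to 6. The treated culture received muscarinic receptor antagonists, which block a family of acetylcholine receptors, at 5 µg/ml, and the untreated culture did not. The labels name neither the compounds nor the length of exposure, and each condition has 1 library of total RNA. No difference here therefore has a replicate check, no p-value is given, and the 95% intervals cover counting error between these 2 libraries only. Levels are in FPKM, the fragment density of a transcript corrected for its length and for the size of the library.

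Fibronectin is a secreted glycoprotein that cells assemble into fibrils around them and bind through integrins. Its pre-mRNA has 3 sites of alternative splicing: the extra type III domains EDB and EDA, each encoded by its own exon, and the variable or V region, which can be left out or kept in part. The plasma form made by hepatocytes lacks EDB and EDA, while the cellular form made by fibroblasts and other cells can hold them. CD44 is a membrane protein that binds hyaluronan, a long sugar polymer of the matrix. Its variable exons, named v2 to v10, lengthen the stem outside the cell, and the standard form CD44s holds none of them.

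An estimated 7300465 fragments lay behind the treated and 6814381 behind the untreated library. As for the labelled cell type, 12 of 15 microglia markers stayed below 1 FPKM in each library. Of these 8 had a listed value of 0 in both, AIF1, CX3CR1, TMEM119, ITGAM, PTPRC, TYROBP, C1QA and C1QB. CD68, a lysosomal gene that other cells also use, was at 12.6 FPKM in the treated and 15.7 FPKM in the untreated library. Mesenchymal markers summed to 3397 FPKM in the treated and 3182 FPKM in the untreated library, led by VIM, an intermediate filament, and COL1A1, a collagen chain. Of these 13 markers 5 stayed below 1 FPKM in each library, and DCN, LUM and COL3A1, other fibroblast markers, were listed at 0 in both. COL1A2, named with its values known, was at 0.157 FPKM in the treated and 0.196 FPKM in the untreated library. Epithelial markers summed to 279 FPKM in the treated and 259 FPKM in the untreated library, nearly all of it KRT18, a keratin, while KRT19 and GRHL2 were listed at 0. Hepatocyte markers summed to 0.987 FPKM in the treated and 1.35 FPKM in the untreated library, and neuron and astrocyte markers to 0.620 and 0.942 FPKM. In RNA from a whole culture, fewer cells of a type and less RNA per cell cannot be told apart.

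FN1 lies on the minus strand of chromosome 2, from 215360440 to 215436070 on hg38, and CD44 on the plus strand of chromosome 11, from 35138870 to 35232402. All 20 CD44 exons and 50 of 52 FN1 exons of the deposited files have the same ends in GENCODE release 29 on GRCh38, from which the sequences below are read in the sense of the mRNA. They are the segments that the results turn on: EDB, EDA, the part of the V region that the form V89 keeps and the CD44 exon v10. In V89 capitals mark the segment nearest the 5′ end, which encodes the CS1 site bound by integrin alpha4beta1. In EDA and v10 capitals mark the letters GAAGAAGA, a purine-rich element known in EDA as a splicing enhancer bound by SR proteins.
EDB, chr2:215392931-215393203, minus strand: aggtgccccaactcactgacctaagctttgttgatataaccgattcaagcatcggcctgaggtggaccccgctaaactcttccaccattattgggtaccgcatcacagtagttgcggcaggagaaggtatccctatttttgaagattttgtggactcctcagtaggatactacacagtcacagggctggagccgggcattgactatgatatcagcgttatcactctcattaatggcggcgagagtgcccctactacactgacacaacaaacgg
EDA, chr2:215380811-215381080, minus strand: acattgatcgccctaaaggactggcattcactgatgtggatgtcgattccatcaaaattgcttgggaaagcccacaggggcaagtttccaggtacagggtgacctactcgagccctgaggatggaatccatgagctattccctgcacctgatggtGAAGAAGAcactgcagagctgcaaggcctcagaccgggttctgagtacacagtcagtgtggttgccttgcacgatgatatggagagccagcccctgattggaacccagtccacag
V89, chr2:215372109-215372375, minus strand: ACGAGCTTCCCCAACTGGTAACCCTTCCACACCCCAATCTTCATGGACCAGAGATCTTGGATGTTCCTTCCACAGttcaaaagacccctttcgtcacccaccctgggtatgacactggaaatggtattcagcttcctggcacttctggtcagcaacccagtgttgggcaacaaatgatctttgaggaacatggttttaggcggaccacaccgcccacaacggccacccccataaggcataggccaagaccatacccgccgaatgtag
v10, chr11:35211246-35211449, plus strand: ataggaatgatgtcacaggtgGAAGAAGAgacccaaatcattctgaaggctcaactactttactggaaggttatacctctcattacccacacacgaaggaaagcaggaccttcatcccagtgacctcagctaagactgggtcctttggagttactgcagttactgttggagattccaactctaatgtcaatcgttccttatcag
EDB is 273 bases long, EDA 270, the whole V region 360 and v10 204, and each can be skipped without a shift of reading frame. Exons v2 to v10 all have a length that is a multiple of 3, against 40.3% of 188665 internal exons of protein-coding transcripts in GENCODE. EDB, EDA and the V segments were picked out by their known lengths in codons, so for them this was given in advance. GAAGAAGA occurs in EDA from base 156, in v10 from base 22, and in v5 and v9, and on the other strand its complement is in neither EDA nor v10. It was found in 1.38% of 145 internal exons as long as EDA and in 4.53% of 486 as long as v10, or in 2.07% and 4.73% when either strand counts. A match describes the letters and no more.

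The V region is spliced at internal sites that divide it into segments of 25, 64 and 31 codons, counted from the 5′ end. The listed transcripts combine them into 4 forms named for their codons: V120 has all 3 segments, V89 the first and the middle one, V64 the middle one alone and V0 none. The listed combinations with EDB and EDA are few. V120 occurs only with both extra domains or with neither, V0 only without EDA, and V64 only without EDB. The map of segments by transcript shows these combinations with each transcript's share of its gene.

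**Figure D1:**
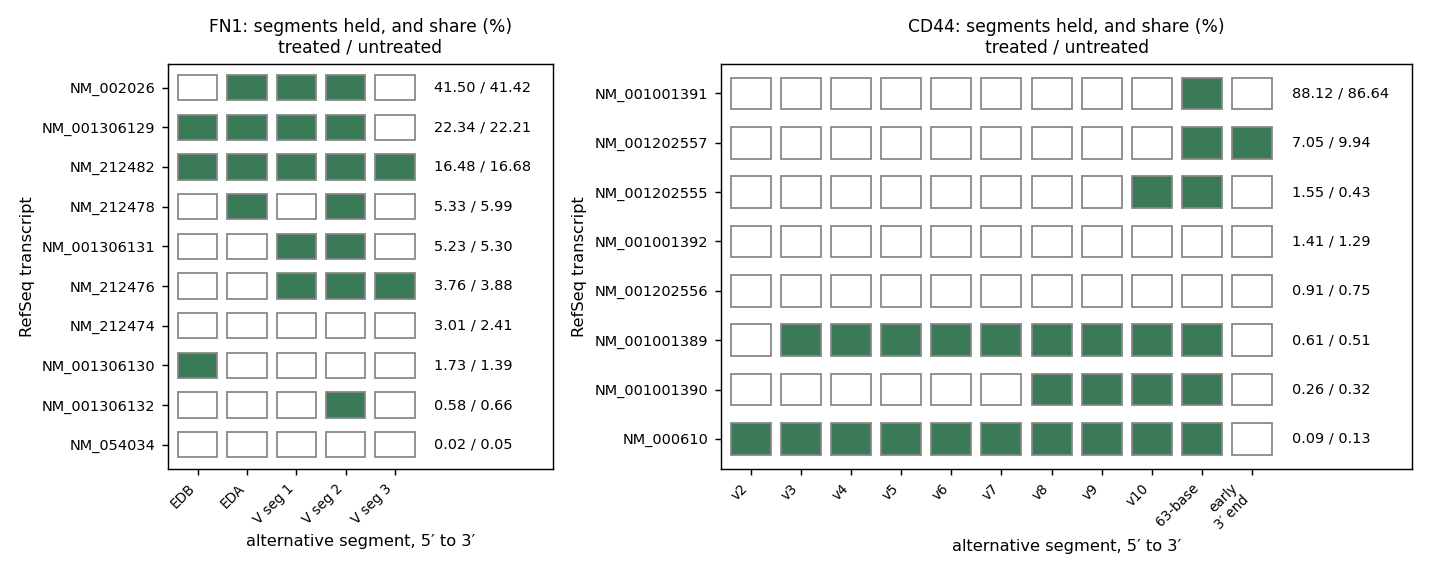
Alternative segments held by each RefSeq transcript of FN1 (left) and CD44 (right), with 1 transcript per row and segments from 5′ to 3′. Filled boxes are held and open boxes are not, and the numbers give the transcript's percent of its gene's FPKM in the treated and the untreated library. NM_002026 leads FN1 with 41.5% and 41.4%, and NM_001001391, without variable exons, leads CD44 with 88.1% and 86.6%.

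FN1 was among the most abundant messages of these cells and slightly more abundant in the treated library. Its transcripts summed to 3021 FPKM in the treated and 2725 FPKM in the untreated library, from an estimated 183678 and 154539 fragments. As a share of the fragments estimated for all listed transcripts together, a smaller total than the library sizes above, that was 2.77% in the treated and 2.52% in the untreated library. It had rank 11 and rank 14 among protein-coding genes. The log2 ratio of treated over untreated, with 1 FPKM added to each value, was 0.15, and the FPKM ratio was 1.11 with a 95% counting interval of 1.10 to 1.12. This is far from the 2-fold rule, which 0.66% of the 11668 genes averaging 1 FPKM or more passed. Library differences of this size were common: 90% of those genes had log2 ratios between -0.30 and 0.34, and 81.5% had a ratio no higher than that of FN1. Among the 729 genes that averaged 100 FPKM or more, whose ratios ran from -0.16 to 0.15 over their central 90%, 94.8% were no higher.

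CD44 was also among the more abundant messages, at rank 560 in the treated and 548 in the untreated library among protein-coding genes, and its level was nearly alike in the libraries. Its transcripts summed to 122 FPKM in the treated and 124 FPKM in the untreated library, from an estimated 3773 and 3527 fragments. The log2 ratio was -0.03 and the FPKM ratio 0.981, with a counting interval of 0.937 to 1.03 that includes 1. Measured by distance on log2(FPKM + 1) over the 2 libraries, the protein-coding genes nearest FN1 in level were the ribosomal protein genes RPS10, RPLP1 and RPS2, at distances of 0.0884, 0.132 and 0.231. Those nearest CD44 were STAU1, LRRC59 and PEBP1, at distances of 0.0131, 0.0134 and 0.0377.

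The most abundant FN1 transcripts held EDA. NM_002026, with EDA and V89 but without EDB, was at 1254 FPKM in the treated library, with the authors' bounds at 1201 and 1307, and at 1128 FPKM in the untreated library, with bounds at 1080 and 1176. NM_001306129, with EDB, EDA and V89, was at 675 FPKM (646 to 704) in the treated and 605 FPKM (578 to 632) in the untreated library. NM_212482, with EDB, EDA and V120, was at 498 FPKM (476 to 520) in the treated and 454 FPKM (434 to 475) in the untreated library. Together they made up 80.3% of FN1 in the treated and 80.3% in the untreated library, and their bounds did not overlap between libraries. All were higher in the treated library, by 1.10 to 1.12 times, as the gene sum was.

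NM_212478, which holds EDA and V64, was at 161 FPKM (153 to 169) in the treated and 163 FPKM (155 to 171) in the untreated library. NM_001306131, with V89 and without the extra domains, was at 158 FPKM (150 to 166) in the treated and 145 FPKM (137 to 152) in the untreated library. NM_212476, with V120 and without the extra domains, was at 114 FPKM (108 to 120) in the treated and 106 FPKM (99.97 to 111) in the untreated library. The bounds of these 3 transcripts overlapped between the libraries. In the order of levels NM_212478 and NM_001306131 could not be separated by their bounds in the treated library, and all other neighbours in either library could.

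The transcripts without the V region had higher ratios than the other 7 FN1 transcripts that reach the usual end, and than the early-ending NM_054034 described next. NM_212474, without any of the alternative segments, was at 91.1 FPKM (85.9 to 96.2) in the treated and 65.8 FPKM (61.6 to 69.9) in the untreated library, and the ratio was 1.38 (95% counting interval 1.33 to 1.45). NM_001306130, with EDB and V0, was at 52.4 FPKM (49.0 to 55.8) in the treated and 37.9 FPKM (35.1 to 40.7) in the untreated library, with the ratio again at 1.38 (1.31 to 1.46). For both the bounds of the libraries did not overlap, while the ratios of the V64 transcripts NM_212478 and NM_001306132 were 0.986 and 0.968. The V89 transcripts had ratios from 1.09 to 1.12 and the V120 transcripts from 1.07 to 1.10. Listed transcripts with the same V form thus had similar ratios. Since V0 is listed only without EDA and V64 only without EDB, V form and extra domains cannot be told apart there. The same holds for EDA and EDB within V120. Cufflinks divides the reads of 1 gene among its listed transcripts, so these values depend on each other. The counting intervals of single transcripts leave out the error of that division and are too narrow. Whether V form and extra domains occur together on single molecules was not tested.

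NM_054034 ends early, in a terminal segment of its own at 215414661 to 215414836, and encodes the short form called migration-stimulating factor. It was at 0.667 FPKM (0.126 to 1.21) in the treated and 1.47 FPKM (0.657 to 2.28) in the untreated library, from an estimated 11 and 22 fragments. Its bounds overlapped between the libraries, and at 11 and 22 fragments this gap is at the limit of counting error. NM_001306132, with V64 alone, was at 17.5 FPKM (15.8 to 19.2) in the treated and 18.1 FPKM (16.3 to 19.9) in the untreated library. In all, 5 of the 10 FN1 transcripts had bounds that did not overlap and a higher value in the treated library, and 0 had a lower one. Over all 16888 transcripts that averaged 1 FPKM or more, 13.4% had non-overlapping bounds, 6.79% with the higher value in the treated library and 6.57% with the lower one. At higher levels the background was 8.45% of 6260 transcripts from 10 FPKM upwards, 4.09% higher and 4.36% lower, and 11.7% of 690 from 100 FPKM upwards, 6.96% higher and 4.78% lower. Of the 6 FN1 transcripts from 100 FPKM upwards 3 were higher by the rule. Reads of 1 gene are divided among its transcripts, so the 5 are not separate observations. By value alone 7 of the 10 were higher and 3 lower in the treated library.

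**Figure D2:**
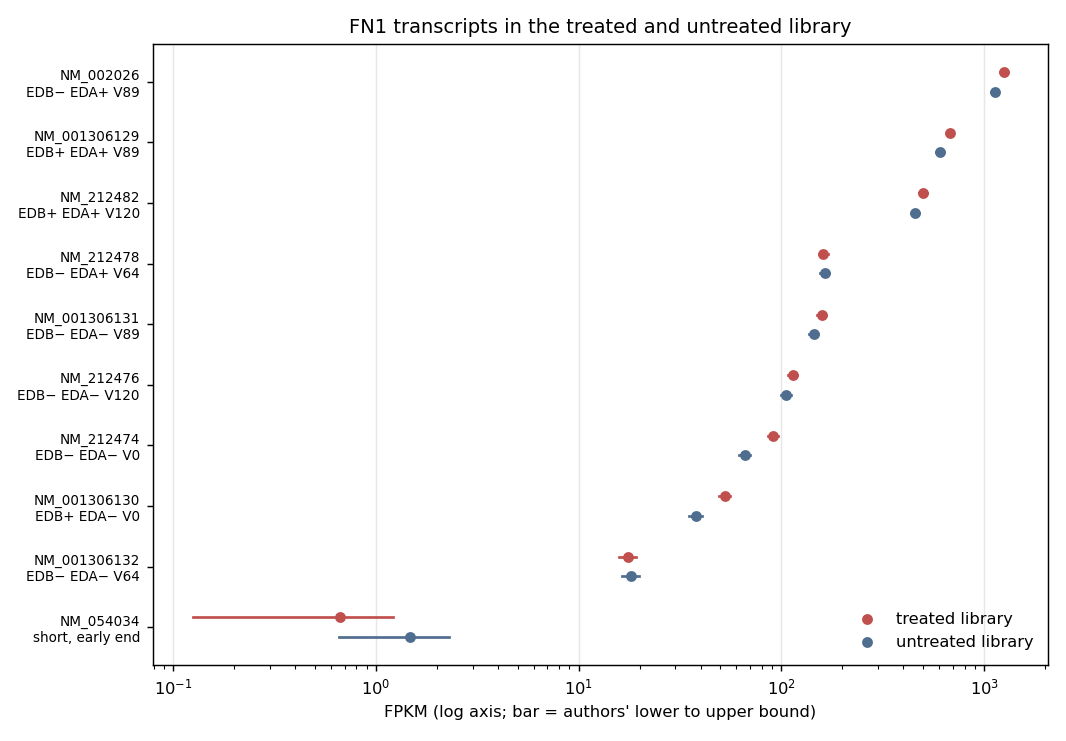
FPKM of the 10 FN1 transcripts on a log axis, with treated points drawn above untreated ones and bars from the authors' lower to upper bound. The levels span from 1254 FPKM for NM_002026 to 0.667 FPKM for NM_054034 in the treated library, and the gap between libraries is widest, apart from NM_054034, in the V0 transcripts NM_212474 and NM_001306130.

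Summed over transcripts, the extra domains were included at nearly the same rate in both libraries. Inclusion is the FPKM of transcripts that hold a segment as a percent of those that span it. Its exact binomial interval rests on the summed read coverage of the spanning transcripts, 6086 in the treated and 5177 in the untreated library. EDA was included in 85.7% (84.8 to 86.6) of FN1 in the treated and 86.3% (85.4 to 87.3) in the untreated library. The difference was -0.66 percentage points, with a 95% Newcombe interval of -1.94 to 0.634. EDB was included in 40.6% (39.3 to 41.8) in the treated and 40.3% (39.0 to 41.6) in the untreated library, a difference of 0.276 points (-1.54 to 2.09). Both intervals include 0, and they leave out the error of dividing reads among transcripts.

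Most FN1 thus held EDA in either library, with or without EDB. Transcripts with both extra domains were 38.8% in the treated and 38.9% in the untreated library, and those with EDA alone 46.8% and 47.4%. Transcripts with neither were 12.6% in the treated and 12.3% in the untreated library. EDB alone was the least frequent combination, at 1.73% in the treated and 1.39% in the untreated library. In the values assigned to listed transcripts, EDB inclusion was 32.3% of V89 and 81.4% of V120 in the treated library. In the untreated library it was 32.2% and 81.1%. The figure for V120 is also that for EDA, since the list holds V120 with both domains or neither. All of these combinations rest on that list and on how reads were divided among its transcripts. Whether the segments occur together on single molecules was not tested.

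V89 was the main form of the V region. It made up 69.1% (67.9 to 70.3) of FN1 in the treated and 69.0% (67.7 to 70.2) in the untreated library, and V120 20.2% (19.2 to 21.3) and 20.6% (19.5 to 21.7). V64 was at 5.91% (5.34 to 6.54) in the treated and 6.66% (6.00 to 7.38) in the untreated library, a difference of -0.75 points with an interval of -1.66 to 0.148. V0 was at 4.75% (4.23 to 5.31) in the treated and 3.81% (3.30 to 4.36) in the untreated library, a difference of 0.942 points with an interval of 0.191 to 1.69. Of the 6 intervals V0 had the one without 0, and those of V64, V89, V120, EDA and EDB included 0. The segment of CS1, in capitals in the V89 sequence, was held by 89.3% of FN1 in the treated and 89.5% in the untreated library.

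**Figure D3:**
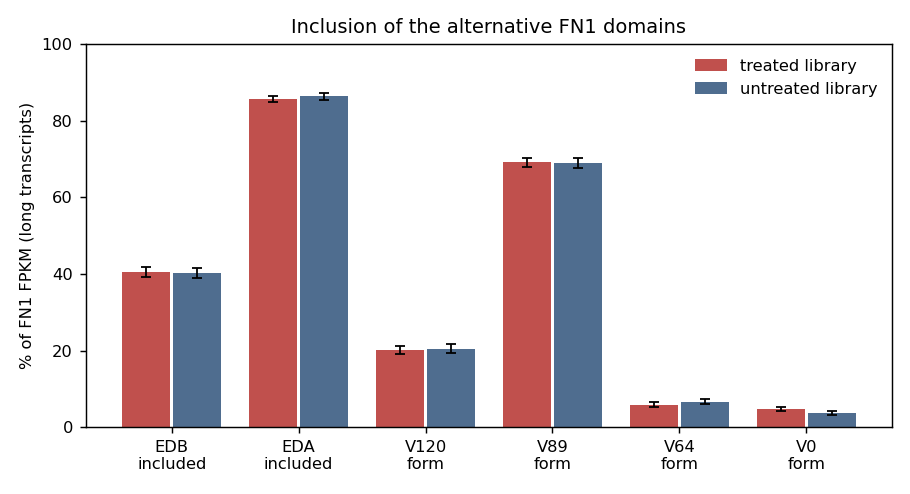
Percent of FN1 FPKM, over the 9 transcripts that span these segments, that includes EDB or EDA or belongs to each V form, with the treated library left of the untreated one and 95% exact binomial intervals on read coverage. EDA stands at 85.7% and 86.3% and EDB at 40.6% and 40.3%, and V0, at 4.75% and 3.81%, is the form whose difference has an interval above 0.

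Most CD44 was of the standard form. NM_001001391, which encodes CD44s and has no variable exon, was at 107 FPKM (101 to 113) in the treated and 108 FPKM (102 to 114) in the untreated library, or 88.1% and 86.6% of the gene. NM_001202557, also without variable exons, has its own last exon at 35222375 to 35223320. It was at 8.59 FPKM (6.66 to 10.5) in the treated and 12.3 FPKM (9.95 to 14.7) in the untreated library. The bounds overlapped. The ratio was 0.696 with counting limits of 0.550 and 0.878, which exclude 1 but leave out the error of dividing reads among transcripts. Its share was 7.05% (4.11 to 10.9) in the treated and 9.94% (6.28 to 14.3) in the untreated library, a difference of -2.89 points with an interval of -7.92 to 2.25. With fragments in place of FPKM the difference was -1.49 points, because this transcript is 2261 bases long and NM_001001391 is 4589.

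Variable exons were rare in both libraries, and the value that differed was that of v10 on its own. NM_001202555, with v10 and no other variable exon, was at 1.89 FPKM (1.23 to 2.55) in the treated and 0.531 FPKM (0.161 to 0.900) in the untreated library. That is an estimated 64 and 17 fragments and 3.56 times as much FPKM, and the bounds did not overlap. The counting limits of 2.03 and 6.39 leave out the error of dividing reads among transcripts. NM_001202555 was 1 of 4 CD44 transcripts with a mean of 0.5 to 5 FPKM. Of all 10687 transcripts at that level 10.6% had non-overlapping bounds and a higher value in the treated library. NM_001001389, with v3 to v10, was at 0.745 FPKM in the treated and 0.634 FPKM in the untreated library, and NM_001001390, with v8 to v10, at 0.313 and 0.393 FPKM. NM_000610, with all of v2 to v10, was at 0.115 FPKM (0 to 0.279) in the treated and 0.156 FPKM (0 to 0.354) in the untreated library, with lower bounds at 0. The bounds of these 3 longer transcripts overlapped between the libraries. They averaged under 1 FPKM. Of the 5 CD44 transcripts over that floor 1 had non-overlapping bounds, namely NM_001202555, against 13.4% of all 16888 transcripts. NM_001202555 averaged over the floor only through its treated value, so this count adds nothing to the difference between its values.

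Summed over the transcripts that hold it, v10 was included in 2.51% (0.908 to 5.28) of CD44 in the treated and 1.38% (0.263 to 3.67) in the untreated library. The difference was 1.13 points with an interval of -1.55 to 4.11, which includes 0, at a read coverage of 6.13 of 244 in the treated and 3.25 of 236 in the untreated library. Exons v8 and v9 were included in 0.963% and 0.953%, v3 to v7 in 0.706% and 0.637%, and v2 in 0.0948% and 0.126%, in the treated and the untreated library. This coverage is summed over whole transcripts and rests on the same division of reads as FPKM. Reads at v10 itself were not counted, so a difference at the exon was not tested. In GENCODE the antisense gene CD44-AS1, at 35210343 to 35214985 on the minus strand, spans v10 with an intron. Whether the libraries are stranded is not given in the sources used here, so reads of the antisense gene and of CD44 cannot be told apart there.

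The remaining CD44 transcripts lack constant exons. NM_001001392, which has 4 exons, was at 1.71 FPKM (1.01 to 2.41) in the treated and 1.60 FPKM (0.906 to 2.29) in the untreated library. NM_001202556, which skips a constant exon of 63 bases, was at 1.11 FPKM (0.593 to 1.62) in the treated and 0.934 FPKM (0.452 to 1.42) in the untreated library. That exon, which overlaps an exon of CD44-AS1, was included in 97.7% of CD44 in the treated and 98.0% in the untreated library. NM_001001391 and NM_001202557 were first and second in both libraries, apart by their bounds, and among the other 6 CD44 transcripts each neighbour in the order overlapped with the next.

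**Figure D4:**
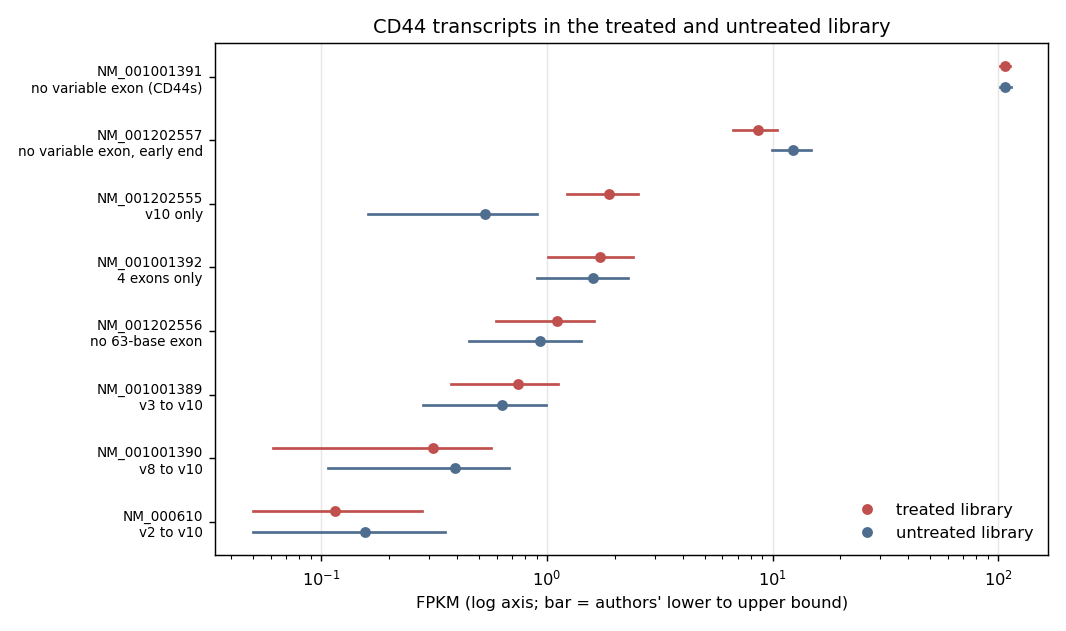
FPKM of the 8 CD44 transcripts on a log axis, with treated points drawn above untreated ones and bars from the authors' lower to upper bound. Both lower bounds of NM_000610 are 0 and its bars start at the left edge of the drawn range. Only NM_001202555, with v10 alone, has bars that do not overlap, at 1.89 and 0.531 FPKM.

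Set beside other genes, the splicing of FN1 was closely alike in the libraries and that of CD44 was ordinary. The largest share difference of any FN1 transcript was 0.665 percentage points, for NM_212478, and of any CD44 transcript 2.89 points, for NM_001202557. Among 4914 genes with at least 2 transcripts that averaged 5 FPKM or more the median was 5.12 points, and 31.2% of them reached 10 points. FN1 had a larger difference than 17.3% of these genes and CD44 than 35.5%. Low depth widens such differences, and among the 914 of these genes from 50 FPKM upwards 6.56% reached 10 points. Among the 84 from 50 FPKM upwards with at least 8 transcripts the median was 3.54 points, and 8 genes had a smaller difference than FN1 and 32 a smaller one than CD44.

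**Figure D5:**
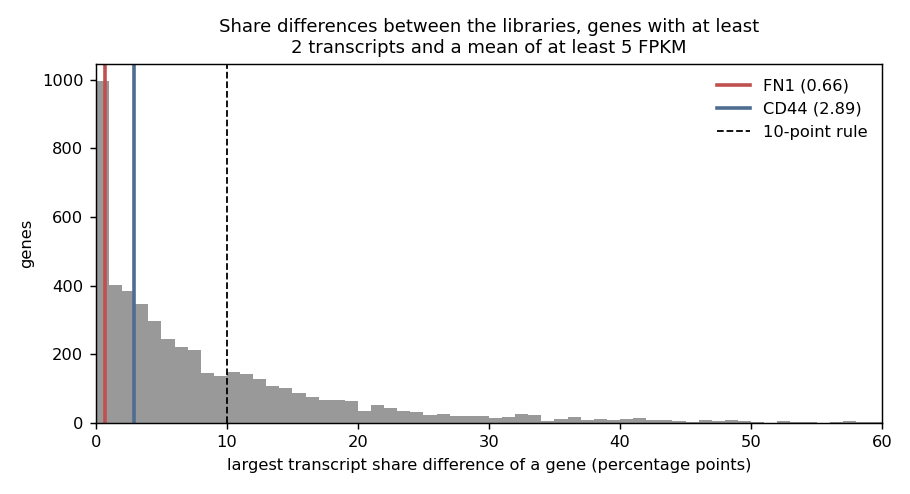
Number of genes (of 4914) by the largest share difference of any of their transcripts between the libraries, in percentage points and bins of 1 point, drawn up to 60 points. FN1 lies at 0.665 and CD44 at 2.89 points, both left of the median of 5.12 and of the 10-point rule, shown as a dashed line.

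Receptors and partners of fibronectin also differed little. Of 15 fibronectin receptor genes 10 averaged 1 FPKM or more. With 1 FPKM added to each value, in 0 of them either library exceeded the other by at least 25%. By that rule 5.49% of the 11668 genes were higher and 4.29% lower in the treated library. The list's median log2 ratio was 0.04, against 0.00 over all genes. ITGB1, the beta1 integrin chain, was at 427 FPKM in the treated and 413 FPKM in the untreated library, and ITGA5, its partner in the main fibronectin receptor, at 41.1 and 39.8 FPKM. ITGA3, another integrin alpha chain, was at 107 and 104 FPKM, and SDC4, a syndecan that binds the heparin-binding domain of fibronectin, at 122 and 120 FPKM. ITGB5, a beta chain that pairs with alphaV, was at 18.0 FPKM in the treated and 16.1 FPKM in the untreated library. ITGA4, the alpha chain that binds CS1, was at 5.55 and 5.42 FPKM and TLR4, for which EDA is a reported ligand, at 0.206 and 0.0552 FPKM from 8 and 2 fragments, both chosen with their values known.

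Of 17 matrix partners of fibronectin 12 averaged 1 FPKM or more, with 0 past the 25% rule and a median log2 ratio of 0.05. By that rule 5.49% of all genes were higher and 4.29% lower. COL1A1 was at 545 FPKM in the treated and 499 FPKM in the untreated library, FSTL1, a secreted glycoprotein, at 318 and 300.3 FPKM, CTGF, a matricellular protein, at 179 and 190 FPKM, and THBS1, thrombospondin, at 171 and 162 FPKM. The largest log2 ratios were 0.29 for BMP1, a procollagen protease at 15.3 and 12.3 FPKM, and -0.26 for TGM2, a transglutaminase that crosslinks fibronectin, at 20.8 and 25.2 FPKM.

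Genes around hyaluronan included 3 past the 25% rule, of 10 that averaged 1 FPKM or more out of 21 listed. Of the 3, 1 was higher and 2 were lower, and over all genes 5.49% were higher and 4.29% lower. HAS3, a hyaluronan synthase, was higher, at 4.39 FPKM in the treated and 3.17 FPKM in the untreated library, and its ratio was 1.38 (1.04 to 1.85). HYAL3, a hyaluronidase family member, was lower, at 0.795 FPKM in the treated and 1.26 FPKM in the untreated library. This came from 9 and 13 fragments, and the interval of its ratio, 0.239 to 1.60, includes 1. HYAL3 averaged over 1 FPKM only through its untreated value, so its place among the 3 follows in part from the floor. Both HAS3 and HYAL3 were named after their values were known. The third was HAPLN3, a link protein, at 7.62 FPKM in the treated and 10.2 FPKM in the untreated library, a ratio of 0.744 (0.567 to 0.975). HAS2, also named with its values known, was at 1.33 FPKM in the treated and 0.949 FPKM in the untreated library. Its FPKM ratio was 1.40 (0.768 to 2.60), but with 1 FPKM added it did not pass the rule. LAYN, a hyaluronan receptor, was at 33.5 FPKM in the treated and 36.6 FPKM in the untreated library, UGDH, which makes the sugar precursor, at 28.3 and 28.8 FPKM, and TMEM2, a cell-surface hyaluronidase, at 21.4 and 19.6 FPKM. VCAN, the proteoglycan versican that binds hyaluronan, stood at 30.2 FPKM in the treated and 25.4 FPKM in the untreated library, and the ratio was 1.19 (1.11 to 1.27). The list's median log2 ratio was 0.13.

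Of 18 genes listed as ligands, proteases or intracellular partners of CD44, 14 averaged 1 FPKM or more. Of these 0 passed the 25% rule, against 5.49% of all genes higher and 4.29% lower, and the median log2 ratio was 0.01. SRGN, the proteoglycan serglycin that binds CD44, was at 169 FPKM in the treated and 173 FPKM in the untreated library. The linkers of CD44 to actin, MSN and EZR, were at 132 and 48.1 FPKM in the treated and 126 and 50.7 FPKM in the untreated library, and IQGAP1, a scaffold protein, at 84.7 and 85.2 FPKM. ADAM17, which sheds membrane proteins, was at 13.02 and 15.2 FPKM, and TIAM1, an exchange factor for RAC1, at 6.90 and 6.10 FPKM.

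Splicing factors tied to FN1 or CD44 were well expressed apart from the epithelial ones. Of 28 listed genes 26 averaged 1 FPKM or more, 0 passed the 25% rule and the median log2 ratio was -0.03, with 9 higher and 17 lower. Over all genes 5.49% were higher and 4.29% lower by the rule, and the median was 0.00. With so few genes listed, 0 past the rule says little. The RNA-binding protein gene HNRNPA1 was at 966 FPKM in the treated and 971 FPKM in the untreated library, YBX1 at 733 and 755 FPKM, HNRNPL at 249 and 260 FPKM and PTBP1, the polypyrimidine tract binding protein, at 240 and 251 FPKM. CELF1, another RNA-binding protein gene, was at 24.8 FPKM in the treated and 29.0 FPKM in the untreated library, a log2 ratio of -0.22, and CLK1, a kinase of SR proteins, at 27.6 and 32.02 FPKM, a log2 ratio of -0.21. ESRP2, which with its relative ESRP1 promotes variable CD44 exons in epithelial cells, was at 0.641 FPKM in the treated and 1.07 FPKM in the untreated library, from 18 and 28 fragments, and ESRP1 was at 0.291 and 0.293 FPKM. SRSF1 and SRSF7, SR proteins that bind the EDA enhancer, were at 26.9 and 42.01 FPKM in the treated and 26.0 and 42.3 FPKM in the untreated library. ESRP1, ESRP2, SRSF1 and SRSF7 were chosen with their values known.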

How the data were processed

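RNA of 2 cultures was sequenced, 1 library each. The submitters' processing notes name hg38, TopHat and Cuffdiff, with no versions in the sources used here. The files name Cufflinks as their source. The values that the authors deposited are FPKM per RefSeq transcript, other than counts, with lower and upper bounds, read coverage and a score relative to the gene's main transcript, which was not used. FPKM was summed by gene name, and shares and segment inclusion were computed from it with the exon rows of the files. Fragments were estimated as the square of 2 × FPKM over the distance to the upper bound, in genes with 1 transcript, and the slope of their ratio to FPKM against transcript length gave the depth. Of such values 21.3% in the treated and 21.1% in the untreated library were whole within 0.01. The slope rests on whole values alone, from longer transcripts with enough fragments that lay close to the fitted line. These were 718 genes in the treated and 691 in the untreated library. Ratio intervals are exact conditional binomial at 95%, and share intervals exact or Newcombe on read coverage. PCR duplicates and the division of reads among transcripts are not covered. Log2 ratios add 1 FPKM. The rules of size were checked on simulated data with counting error alone, without the error of dividing reads among transcripts.

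Members, lists and rules were chosen with earlier results of these data known. Named genes are the 4 highest and the 2 with the largest ratio (mean of at least 5 FPKM) of each list, the leading and zero markers, and the 3 genes nearest each member. Others are marked, and 1 marker gene is not reported here. Alternatives changed the pseudocount, scaling, floor, weight and bounds. Python 3.11.15, numpy 2.4.6, pandas 2.3.3, scipy 1.17.1 and matplotlib 3.10.9 were used.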

Additional observations from a re-analysis of the deposited data

How the results depend on the processing

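No paired analysis was possible because each condition has 1 library, and for the same reason no library could be left out. The log2 ratio of FN1 was 0.16 when libraries were scaled to the upper quartile of gene sums, outside its counting interval, and stayed inside it under the other 4 settings, as that of CD44 did under all 5. All 69 share differences of single transcripts under alternative settings stayed within their main counting intervals, as did the inclusion of EDA, EDB, the V forms, v10 and the early CD44 end. For CD44 the intervals are wide, so staying within them shows little. With fragments in place of FPKM the share difference of NM_001001391 was 0.0442 points, against 1.48 in the main setting. The difference for v8 and v9 was -0.0164 points with the upper bounds, and it could not be had without transcripts under 1 FPKM, since none was left. The count of 2-fold genes, 77, was 172 with a pseudocount of 0.1, 45 with one of 5, 248 with the most abundant transcript alone and 45 with a floor of 5 FPKM. The count of genes with a share difference of at least 10 points, 1531, was 60 with a floor of 50 FPKM and 2532 with one of 1. Floors of 10 and 100 FPKM, chosen after seeing the data, left 529 and 81 transcripts with non-overlapping bounds, against 2256. The shift between libraries that scaling removed was 0.0026 on the log2 scale with the median and -0.0125 with the upper quartile. Depth limits the CD44 transcripts with variable exons, whose summed coverage was 6.13 or less.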
